A study of Caenorhabditis elegans with 20 samples.

Results

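The ribosomal protein genes described here are the 78 genes of the deposited count table whose WormBase symbol starts with rpl- or rps-, out of 46904 gene IDs. They comprise 47 rpl genes, named for proteins of the large ribosomal subunit, and 31 rps genes, named for proteins of the small subunit. The members were defined by name alone, although the family was picked with earlier results of these data known. All 78 are annotated as protein coding, and all 78 were among the 16980 genes abundant enough to test. The RNA came from whole Caenorhabditis elegans at the young adult stage and was selected for poly(A) tails before sequencing. There were 3 replicates in each of 4 groups: WT (wild-type) animals without mold, WT with the mold Penicillium brevicompactum on the plates, ns889 without mold, and ns889 with mold. All groups had been grown for about 48 h from L1 arrest at 20 C with Escherichia coli OP50 as food. Which gene carries the ns889 allele is not stated in the labels.

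A ribosome joins ribosomal RNA with a fixed set of proteins into a small subunit, which reads the mRNA, and a large subunit, which forms the peptide bond. Growing cells devote much of their mRNA to these proteins, and production of proteins and RNA is matched through the nucleolus, where RNA polymerase I copies the ribosomal RNA genes and assembly factors join the parts. In the adult worm the germ line and the intestine are large sites of protein synthesis, the intestine because it makes yolk.

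The replicates held 95998037 to 115940062 counts each. Whether replicates were separate cultures is not stated, and p-values therefore cover only the spread seen among these samples. The root mean square log2 difference from the other replicates of the same group was largest for WT without mold replicate 1 (0.612), WT with mold replicate 3 (0.577) and WT with mold replicate 1 (0.533). The other 9 replicates lay between 0.343 and 0.463, and counts that rest on the distant libraries are given with and without them. The study did not sort tissues, so fewer cells of a type and less RNA per cell cannot be told apart in any of the values below. The counting's strand setting is not given in the sources used here. Exon bases were shared with a gene of the same strand in 6 members and with a gene of the opposite strand in 14, and 58 shared none.

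Ribosomal protein genes were among the most abundant transcripts of the animal. Levels between genes were compared as CPM (counts scaled to the library's total and by TMM) per kb of exon length. The median member had 1324 CPM per kb, against 6.55 for all tested genes, and the quartiles of the members were 957 and 1856. Of the first 100 genes ranked by CPM per kb, 51 were members, and of the first 500, 75 were. The medians of both subunits were close, with 1285 CPM per kb for the rpl genes and 1522 for the rps genes.

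The highest level belonged to rps-8, a small subunit gene, with 5014 ± 315 CPM per kb (mean ± SD over the 12 replicates). It was followed by rpl-6 (3802 ± 217), rpl-24.1 (3684 ± 225), rpl-3 (3454 ± 290) and rps-7 (3385 ± 238). The product of rpl-3 belongs to the core of the large subunit near the site of peptide bond formation. At the lower end stood rpl-42 (2.97 ± 1.03 CPM per kb), rpl-41.1 (62.0 ± 6.89), rpl-24.2 (159 ± 38.0), rpl-37 (387 ± 71.2) and rpl-22 (425 ± 43.5). Apart from the 3 lowest genes, the highest member exceeded the lowest 12.95-fold.

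**Figure D1:**
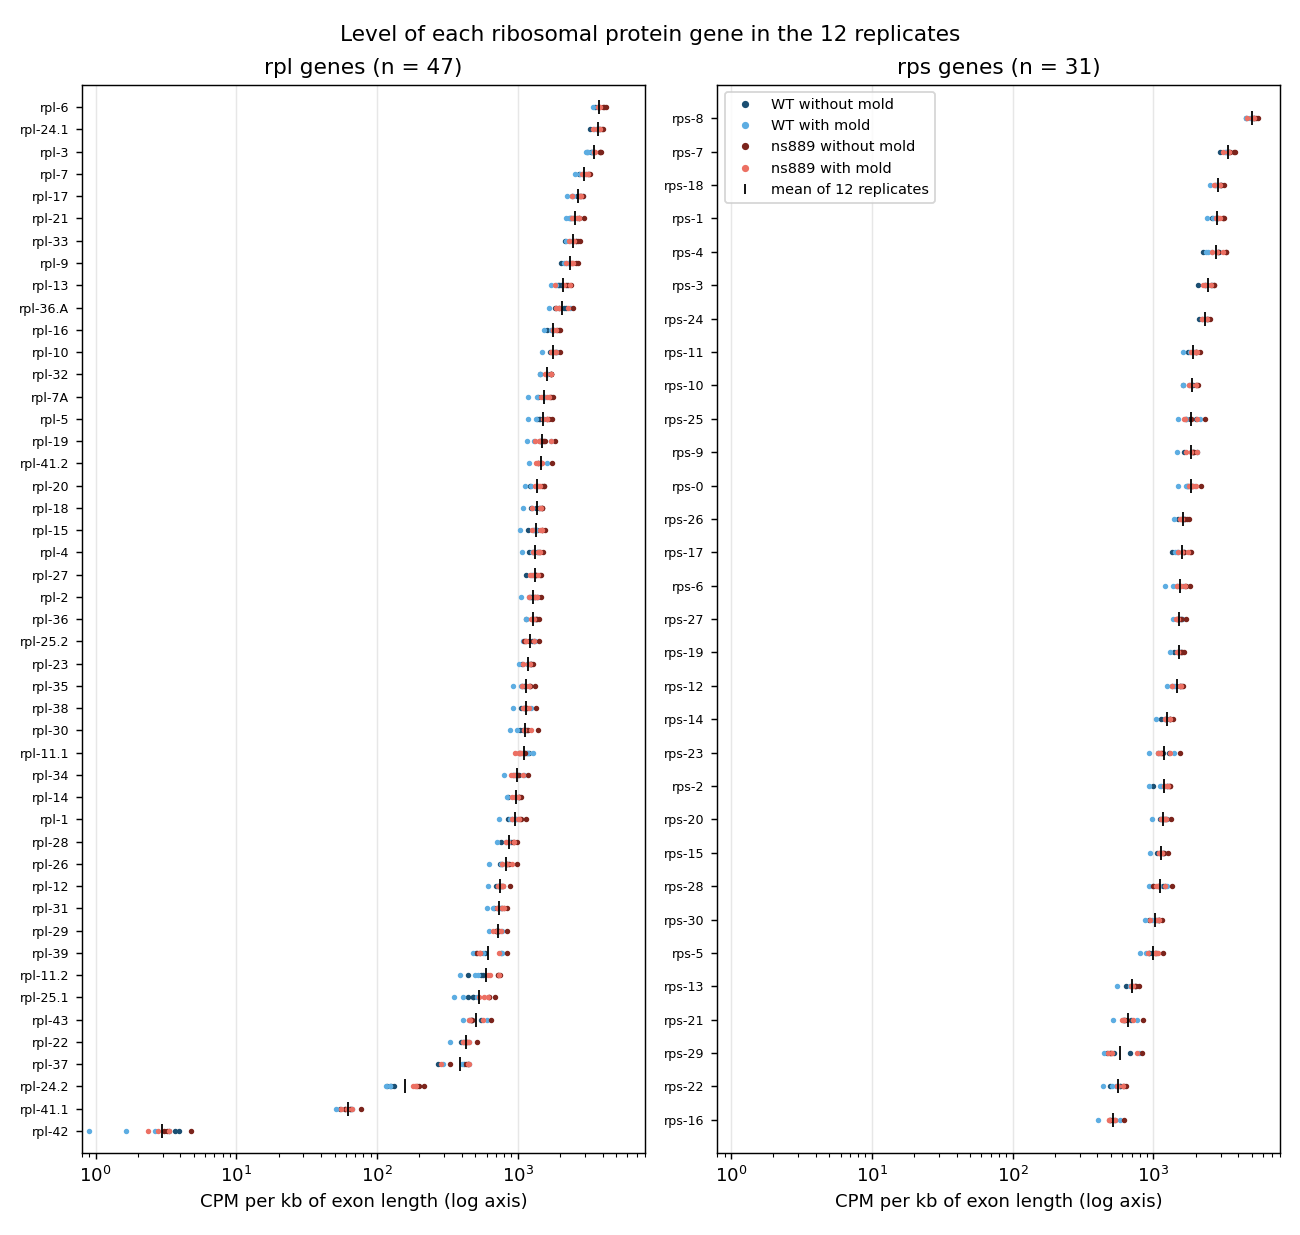
Level of each of the 47 rpl and 31 rps genes in CPM per kb of exon length (log axis), with 1 point per replicate coloured by group and a bar at the mean of the 12 replicates. Of the 78 members 55 lie above 1000 CPM per kb, and rpl-24.2, rpl-41.1 and rpl-42 lie below the rest.

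rpl-42 (WBGene00004455, chromosome II, 11092713 to 11093871) stood apart from the family. It had 0.513 to 2.72 CPM, from 50 to 306 counts a replicate, and ranked 10578 of the tested genes per kb. The family was unevenly placed on the chromosomes: 23 members lay on chromosome I, 18 on III, 17 on IV, 10 on II, 8 on V and 2 on X. The X chromosome thus held 2.56% of the members and 14.2% of the tested genes, while chromosome I held 29.5% of the members and 15.7% of the tested genes. The members on X were rpl-11.2 and rpl-25.1. All coordinates are those of the WBcel235 build.

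The summed share of all counts that fell on the 78 genes was 7.27, 7.77 and 7.52% in the WT replicates without mold. It was 7.80, 7.16 and 6.39% in WT with mold, 8.47, 8.22 and 8.23% in ns889 without mold, and 8.08, 7.89 and 8.20% in ns889 with mold. Each of the 6 ns889 replicates had a larger share than each of the 6 WT replicates. On the TMM scale the genotypes overlapped. There the median member of ns889 with mold replicate 2 lay at -0.054 log2 from its mean over the 12 replicates. The same value was 0.045 in WT with mold replicate 1 and 0.034 in WT without mold replicate 2. The means were 7.52 ± 0.253 and 7.12 ± 0.706% in WT without and with mold, and 8.31 ± 0.139 and 8.06 ± 0.159% in ns889 (SD, n = 3). WT with mold had the widest spread of the 4 groups, and its replicate 3 had the lowest share of all replicates.

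**Figure D2:**
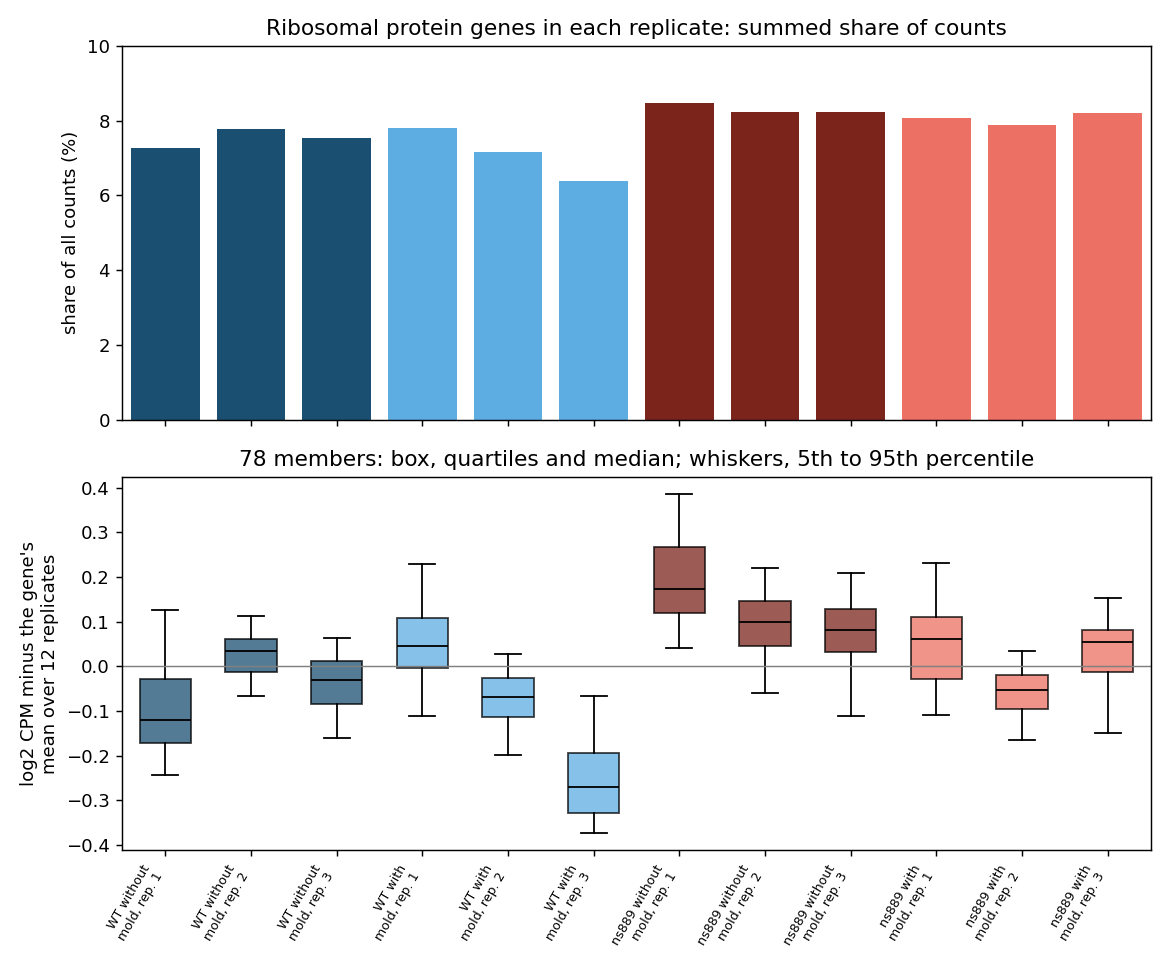
Upper panel, share of all counts (%) on the 78 ribosomal protein genes in each replicate; lower panel, log2 CPM of the members minus each gene's mean over the 12 replicates (box: quartiles and median; whiskers: 5th to 95th percentile). The ns889 replicates without mold lie highest (medians 0.17, 0.10 and 0.08), and WT with mold replicate 3 lies lowest (median -0.27).

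Members moved together from replicate to replicate. After each group's mean was taken off the log2 CPM, the median Pearson r over the 3003 pairs of members was 0.717 across the 12 replicates, and 88.2% of pairs were above 0. For the 2048 other genes with a mean of at least 100 CPM the median was 0.0962, with 54.4% of pairs above 0. The replicates share their depth and scaling, and a single component held 70.3% of the members' variance, with 23.8% on the second. WT with mold replicate 1 (0.56) and replicate 3 (-0.53) lay at opposite ends of the first component, and WT without mold replicate 1 (-0.62) at the end of the second.

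Of the 78 members, 46 had r over 0.8 with the median of the others, led by rpl-1 (0.989). The 4 members least like the others were rpl-37 (-0.228), rpl-24.2 (-0.115), rps-7 (-0.0339) and rps-3 (0.181). rps-3 and rps-7 encode small subunit proteins. The SD within groups was 0.067 log2 for rpl-24.2 and 0.082 for rps-7, below the median of 0.114 for all members, and 0.117 for rps-3, near it. rpl-37, whose product binds zinc in the large subunit, had 0.333.

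rpl-37 and several short members set replicate 1 apart from replicates 2 and 3. Replicate 1 of each group was sequenced in 1 run and the others in 2, and the labels give no further difference. rps-29, a short zinc-binding small subunit gene (WBGene00004498, chromosome III, 794300 to 795120), had 243.5, 278.0, 295.1 and 269.5 CPM in replicate 1 of WT without mold, WT with mold, ns889 without mold and ns889 with mold. In the 8 other replicates it had 157.4 to 185.4 CPM. Replicate 1 was thus higher in each of the 4 groups, by 0.65 log2 on average.

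rpl-37 (WBGene00004451, chromosome III, 3528547 to 3528968) went the opposite way. Its replicate 1 had 95.2, 104.3, 116.8 and 100.7 CPM in the same order of groups, and the 8 other replicates had 141.4 to 159.2 CPM, a mean difference of -0.56 log2. It was the only member with every replicate 1 below all other replicates. rpl-39, whose product lines the exit tunnel of the large subunit, was higher in replicate 1 by 0.55 log2 and rpl-43 by 0.38.

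In all, 11 members had every replicate 1 above all 8 others, which is 14.1% of members against 1.85% of the 3784 other genes with at least 50 CPM. Replicate 1 was higher within all 4 groups for 18 members (23.1%, against 11.9% of the other genes) and lower for 5 (6.41%, against 13.4%). Short genes made up most of the former: of 13 members under 400 bases, 10 were higher in replicate 1 in all 4 groups, and of 65 longer members 8 were. The median difference was 0.23 log2 in the short members and 0.04 in the longer ones. The part of this difference in the comparisons below was measured by leaving out replicate 1 and by a term for it.

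**Figure D3:**
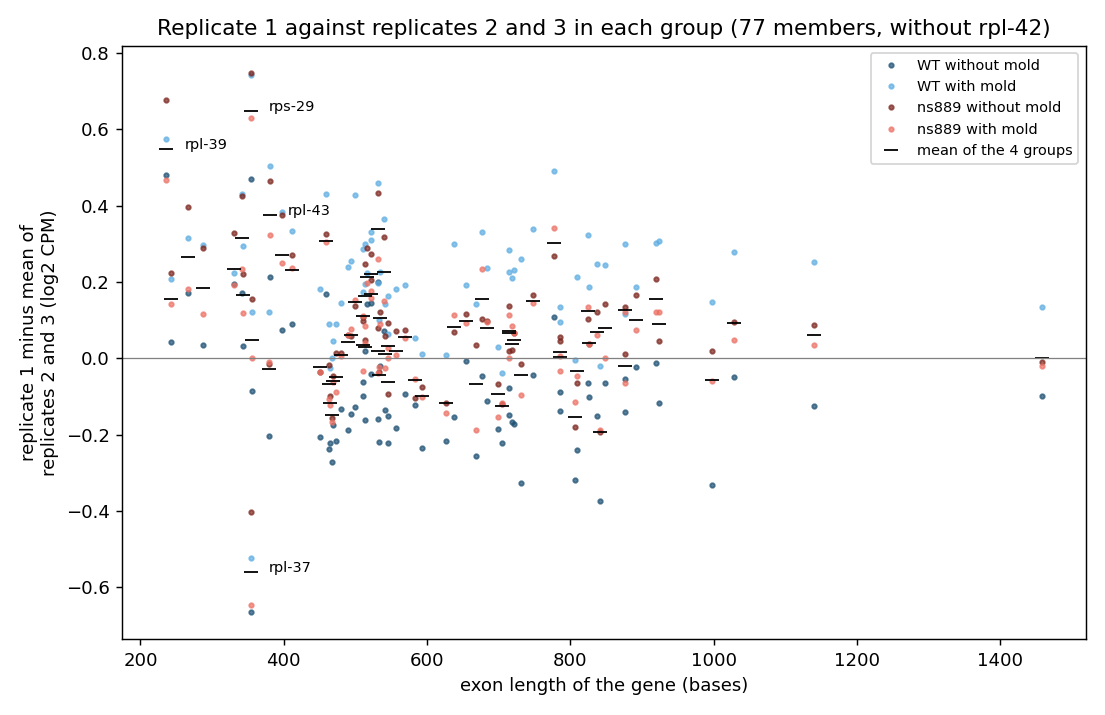
Difference in log2 CPM between replicate 1 and the mean of replicates 2 and 3 in each group, against exon length in bases, for 77 members (rpl-42 is not drawn). Points are the 4 groups and bars their mean; rps-29, rpl-39 and rpl-43 lie above 0 in all 4 groups, and rpl-37 lies below 0 in all 4.

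The first comparison asked how the genes differed between WT with and without the mold. No member passed an adjusted p of 0.05 in either direction in edgeR's quasi-likelihood test, against 1.67% of all tested genes higher and 4.6% lower. At an unadjusted p under 0.05 there was 1 member, rpl-42, against 14.3% of all genes in that direction, and DESeq2 called the same gene lower, whereas limma-voom called none. The median log2 fold change over the members was -0.04, with 72 of 78 below 0. For all tested genes it was 0.01, with 51% above 0, and for the other genes of at least 100 CPM it was 0.08. Without rpl-42 the members' values ran from -0.15 to 0.04, and for 74 of 77 the 95% interval stayed within 0.5 log2 of 0, that is within a 1.41-fold change either way.

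rpl-42 had 1.92, 2.25 and 2.10 CPM in WT without mold and 1.51, 0.935 and 0.513 CPM with mold. The groups did not overlap, as in 9.48% of all genes in the lower direction, and the replicates with mold were the more spread (SD 0.499 against 0.165). The log2 fold change was -1.08 ± 0.32 (SE; adjusted p = 0.0608, edgeR), and over the alternative settings it was -0.77 to -1.60 with adjusted p of 0.00222 to 0.23. It passed in 8 of these settings.

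The member with the next smallest p was rps-22, a small subunit gene, at 399.1, 471.3 and 471.0 CPM without mold and 441.9, 408.4 and 355.3 CPM with it. Its groups overlapped, and the log2 fold change was -0.15 ± 0.088 (adjusted p = 0.287, edgeR). Single libraries moved the family's values here. The median was 0.03 without WT with mold replicate 3, and 54 of 78 members were then above 0. It was -0.14 at its lowest. Without replicate 1 of WT without mold, rpl-42 and rps-2 were lower in place of 0 members, and without replicate 1 of WT with mold, rpl-42 and rpl-25.1 were. Each time this was 2.56% of the members, against 14.8 and 9.08% of all genes lower in those settings. With replicates 2 and 3 of each group alone there were 13 lower, 16.7% of the members against 19.4% of all genes in that setting, and a median of -0.16. That setting was chosen after seeing the data.

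In ns889 the same comparison gave no member past the threshold either, against 1.86% of all genes higher and 1.28% lower. DESeq2 and limma-voom called none, and 1 member, rpl-3, was lower at an unadjusted p under 0.05 (6.6% of all genes). All 78 members had a log2 fold change below 0, with a median of -0.11. The median of all genes was -0.02, with 46.2% above 0. For 26 members each replicate with mold lay below each replicate without it, which is 33.3% of the family against 18.9% of all tested genes. Leaving out single replicates kept the median between -0.13 and -0.07.

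rpl-3 (WBGene00004414, chromosome III, 3867852 to 3869587) had 5602, 5685 and 5599 CPM in ns889 without mold and 5056, 5066 and 5182 CPM with it. The groups lay well apart for a difference of -0.14 ± 0.059 log2, which did not pass (adjusted p = 0.314, edgeR). rps-26, a small subunit gene, had 837.8, 857.6 and 804.2 CPM without mold and 755.1, 737.3 and 765.6 CPM with it (-0.15 ± 0.069, adjusted p = 0.389). Yolk genes of the intestine moved in this comparison: 3 of 6 fell, and their summed level ran from 63690 to 65100 CPM without mold and from 40900 to 46900 CPM with it. Other intestine genes did not follow, with 1 of 7 higher, 0 lower and a median of 0.19. Of 6 epidermis genes 0 passed, with a median of 1.03 and 5 free of overlap in the higher direction, against 12.7% of all genes. The summed level of the epidermis genes did not rise, at 2666 to 2823 CPM without mold and 2283 to 2716 CPM with it. The part of these changes in the members' values was not tested.

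The difference between both mold responses was not past the threshold for any member. The whole table had 0.0353% of genes higher and 0.0942% lower in ns889, and no member reached an unadjusted p under 0.05 in edgeR, which 4.44% of all genes did. DESeq2 and limma-voom called none. The smallest p values were those of rpl-42 (0.70 ± 0.44 log2) and rps-7 (-0.14 ± 0.10, adjusted p = 0.87 for both). The median was -0.06, against -0.03 for all genes and -0.09 for the other genes of at least 100 CPM. Above 0 were 8 of 78 members, against 44.9% of all genes and 14.9% of those other abundant genes. This direction was not stable: 65 members were above 0 with library totals, 55 without WT with mold replicate 1, 44 without ns889 with mold replicate 2 and 69 with replicates 2 and 3 only. The interval of the difference lay within 0.5 log2 of 0 for 69 of 77 members without rpl-42.

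The comparison of the genotypes asked how ns889 differed from WT in each condition. Without mold, 3 members were higher in ns889 at an adjusted p under 0.05 in edgeR's test and 0 were lower, against 2.42 and 0.453% of all tested genes. They were rpl-24.2, rpl-11.2 and rpl-25.1, all of the large subunit group by name. With mold the same 3 genes were higher and 0 lower, against 5.12 and 1.61% of all genes. These shares, 3.85% of the members in each case, are near those of the whole table. The comparisons share no libraries, but both come from a single model with a shared estimate of spread and shared scaling. Their p-values are therefore not independent. DESeq2 and limma-voom called the same 3 genes in each condition, and also rpl-3 without mold. In edgeR's test rpl-3 missed the threshold there (0.24 ± 0.059 log2, adjusted p = 0.0523), with 4553, 4888 and 4858 CPM in WT and 5602, 5685 and 5599 CPM in ns889.

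Most values of the remaining members lay slightly above 0 in ns889 without passing the test. Of 78 members, 77 had a log2 fold change above 0 without mold and 72 with mold, and 72 were above 0 in both. Of all tested genes 48.4 and 49.2% were above 0, and of the other genes of at least 100 CPM 35.9 and 24.5%. The medians were 0.15 without mold and 0.08 with mold, against -0.01 for all genes in both. Without mold 44 members had every ns889 replicate above every WT replicate, 56.4% of the family against 12.3% of all genes, and 21 had an unadjusted p under 0.05 in that direction, against 8.36% of all genes.

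Both subunits shared this pattern. Of the rpl genes 29 of 47, and of the rps genes 15 of 31, had no overlap in the higher direction without mold. The medians were 0.16 and 0.12 without mold and 0.10 and 0.07 with mold for rpl and rps genes, and the 3 calls in each condition were all rpl genes.

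With mold fewer members were free of overlap: 8 members had no overlap in the higher direction, 10.3% of the family against 17.9% of all genes, and 7 had an unadjusted p under 0.05, against 15.2%. That count of signs rested on WT with mold replicate 3, without which 44 of 78 members were above 0 and the median was 0.02. Without WT with mold replicate 1 the median was 0.17. The genotype differences of the 78 members in both conditions had a Pearson r of 0.695 and a Spearman rho of 0.748. Without rpl-42 and the 3 genes past the threshold, r was 0.820 over 74 members.

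**Figure D4:**
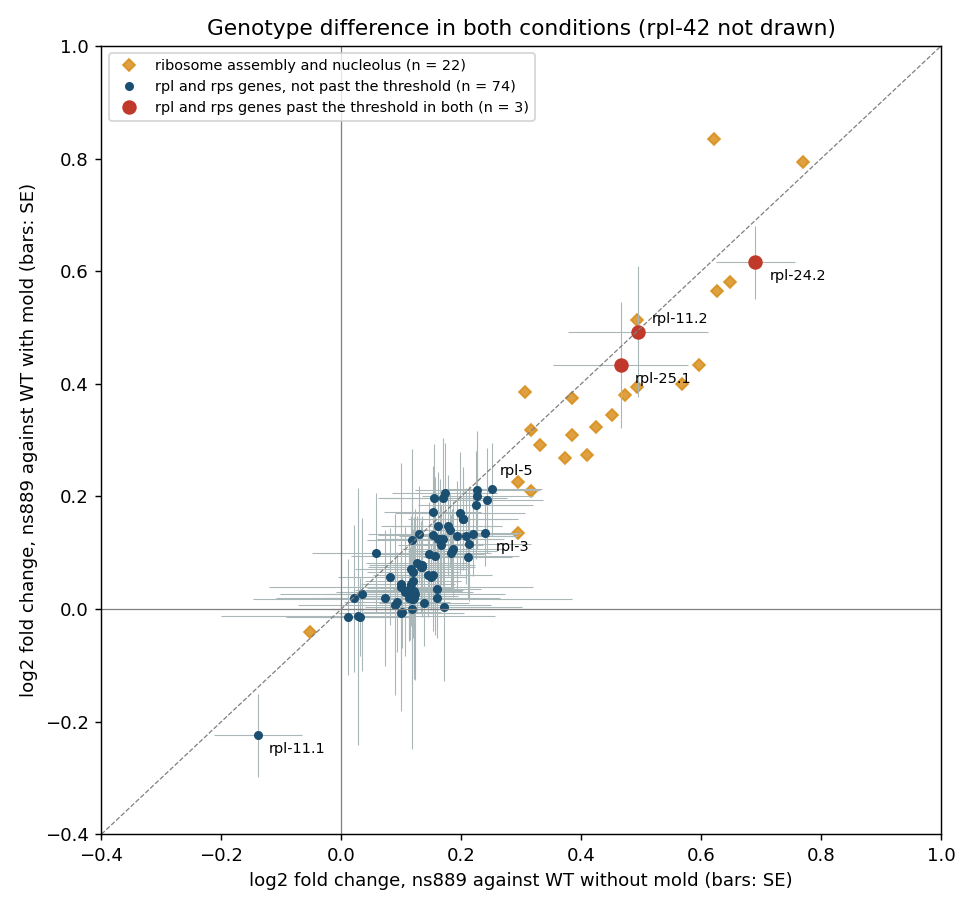
Log2 fold change of ns889 against WT with mold, against the same without mold, for 77 ribosomal protein genes (rpl-42 is not drawn) and for 22 genes of ribosome assembly and the nucleolus; bars are standard errors, shown for the ribosomal protein genes, and the dashed line marks equal values. rpl-24.2, rpl-11.2 and rpl-25.1 lie apart from the other members and among the assembly genes, and rpl-11.1 lies below 0 on both axes.

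rpl-24.2 (WBGene00004437, chromosome I, 9669415 to 9670098, plus strand) had the largest log2 fold change of the 3 called genes in both conditions. Its counterpart in yeast, Rlp24, is a factor that helps to assemble the large subunit and is later exchanged for the ribosomal protein that rpl-24.1 encodes. It had 69.0, 73.3 and 76.8 CPM in WT without mold and 112.2, 115.9 and 125.6 CPM in ns889. With mold it had 72.5, 67.3 and 72.4 CPM in WT and 105.7, 111.1 and 108.5 CPM in ns889. All 6 ns889 replicates exceeded all 6 WT replicates. The log2 fold change was 0.69 ± 0.065 without mold (1.61-fold, adjusted p = 0.000107) and 0.62 ± 0.065 with mold (1.53-fold, adjusted p = 0.000151, edgeR). It passed under every alternative run, with replicates left out included.

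Its relative rpl-24.1 (WBGene00004436, chromosome I, 4585115 to 4586177), the ribosomal protein itself, was much more abundant and differed little. It had 1773, 2087 and 2045 CPM in WT and 2037, 2167 and 2182 CPM in ns889 without mold, with overlap between the groups (0.11 ± 0.073, adjusted p = 0.662, edgeR). With mold the difference was 0.02 ± 0.073. Per kb, rpl-24.2 made up 3.11 to 3.51% of the pair in the 6 WT replicates and 4.61 to 5.27% in the 6 ns889 replicates.

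rpl-11.2 and rpl-11.1 encode versions of a large subunit protein that, with the rpl-5 product, binds the 5S ribosomal RNA. rpl-11.2 (WBGene00004423, chromosome X, 2241738 to 2242618) had 323.9, 413.0 and 400.2 CPM in WT and 530.1, 528.2 and 543.2 CPM in ns889 without mold. With mold it had 383.6, 361.3 and 283.9 CPM in WT and 460.2, 452.3 and 534.9 CPM in ns889. The genotypes did not overlap in either condition. The log2 fold change was 0.49 ± 0.12 in both (adjusted p = 0.0411 without mold and 0.0253 with mold, edgeR).

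rpl-11.1 (WBGene00004422, chromosome V, 3585313 to 3586064) ran the other way. It had 760.4, 787.7 and 742.1 CPM in WT and 730.7, 679.1 and 670.1 CPM in ns889 without mold (-0.14 ± 0.074, adjusted p = 0.534). With mold it had 843.6, 776.7 and 701.7 CPM in WT and 691.4, 623.8 and 672.9 CPM in ns889 (-0.22 ± 0.074, adjusted p = 0.0916, edgeR). It was the only member without overlap in the lower direction in either condition (5.97 and 13.5% of all genes), though its test did not pass there. Without WT with mold replicate 3 it passed with mold, as the 1 member lower (1.28%, against 1.26% of all genes).

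Per kb, rpl-11.2 supplied 30.7 ± 2.70% of the pair in WT without mold and 40.9 ± 1.35% in ns889. With mold it supplied 28.3 ± 1.51 and 39.5 ± 2.12% (SD, n = 3). The log2 ratio of rpl-11.2 to rpl-11.1 was higher in ns889 by 0.64 ± 0.12 and 0.72 ± 0.097 (SE), with no overlap. The two-sided exact permutation test gave p = 0.1 in both cases, the smallest value that 3 against 3 allows. Ratios were tested only for this pair and for rpl-25.1 and rpl-25.2. Each pair holds a gene already called in the same replicates, so the separation is no further evidence. The sum of rpl-11.1 and rpl-11.2 differed less, with 1684 ± 81.9 CPM per kb in WT and 1789 ± 45.2 in ns889 without mold, and 1651 ± 178 and 1672 ± 94.6 with mold. rpl-5 itself had 1414, 1461 and 1467 CPM in WT and 1800, 1702 and 1668 CPM in ns889 without mold, which did not overlap but did not pass (0.25 ± 0.083, adjusted p = 0.175, edgeR).

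rpl-25.1 and rpl-25.2 encode versions of a large subunit protein near the mouth of the exit tunnel. rpl-25.1 (WBGene00004438, chromosome X, 4715178 to 4715801) had 219.5, 241.6 and 238.0 CPM in WT and 342.3, 313.1 and 309.8 CPM in ns889 without mold. With mold it had 255.4, 204.4 and 176.4 CPM in WT and 306.8, 264.9 and 287.6 CPM in ns889. The genotypes did not overlap, with log2 fold changes of 0.47 ± 0.11 (adjusted p = 0.0461) and 0.43 ± 0.11 (adjusted p = 0.0385, edgeR).

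rpl-25.2 (WBGene00004439, chromosome I, 8329062 to 8329684) did not pass. It had 677.2, 645.3 and 584.3 CPM in WT and 728.3, 619.9 and 573.1 CPM in ns889 without mold, and its log2 fold change was 0.01 ± 0.10 (95% interval -0.21 to 0.24) and -0.01 ± 0.10 with mold (-0.24 to 0.21). The share of rpl-25.2 in the pair per kb was 72.5 ± 2.29% in WT and 65.7 ± 1.58% in ns889 without mold, and 74.1 ± 1.65 and 67.5 ± 0.949% with mold. The log2 ratio of rpl-25.2 to rpl-25.1 was lower in ns889, at -0.46 ± 0.11 and -0.46 ± 0.080 (two-sided exact permutation p = 0.1, the smallest possible). Since rpl-25.1 had been called in the same replicates, this ratio too is no further evidence. The members on the X chromosome thus both passed the test, and their relatives on chromosomes V and I did not. The other called gene, rpl-24.2, lies on chromosome I, and the share of all X genes called was not determined.

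The calls of rpl-11.2 and rpl-25.1 were less firm than that of rpl-24.2. Leaving out any 1 of the 6 replicates without mold left rpl-24.2 alone, with rpl-11.2 at adjusted p of 0.057 to 0.139 and rpl-25.1 at 0.0877 to 0.178. Their log2 fold changes then stayed within 0.39 to 0.56 and 0.42 to 0.49. With mold, rpl-24.2 alone remained when either WT replicate 2 or 3, or either ns889 replicate 1 or 3, was left out. Leaving out WT with mold replicate 1 gave 9 members (11.5%, against 7.7% of all genes), and replicates 2 and 3 alone gave 20 (25.6%, against 15.7%).

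The last pair, rpl-41.1 and rpl-41.2 (chromosome I, 4789190 to 4789592 and 4790292 to 4790649), encodes the smallest protein of the large subunit. The genes lie side by side and are known as near copies, so that reads may have been divided between them uncertainly. rpl-41.2 supplied 95.7 to 96.2% of the pair per kb in the 12 replicates, and neither gene passed in any comparison. The log2 fold changes of ns889 against WT were 0.17 ± 0.13 and 0.10 ± 0.11 without mold (adjusted p = 0.756 and 0.864, edgeR).

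**Figure D5:**
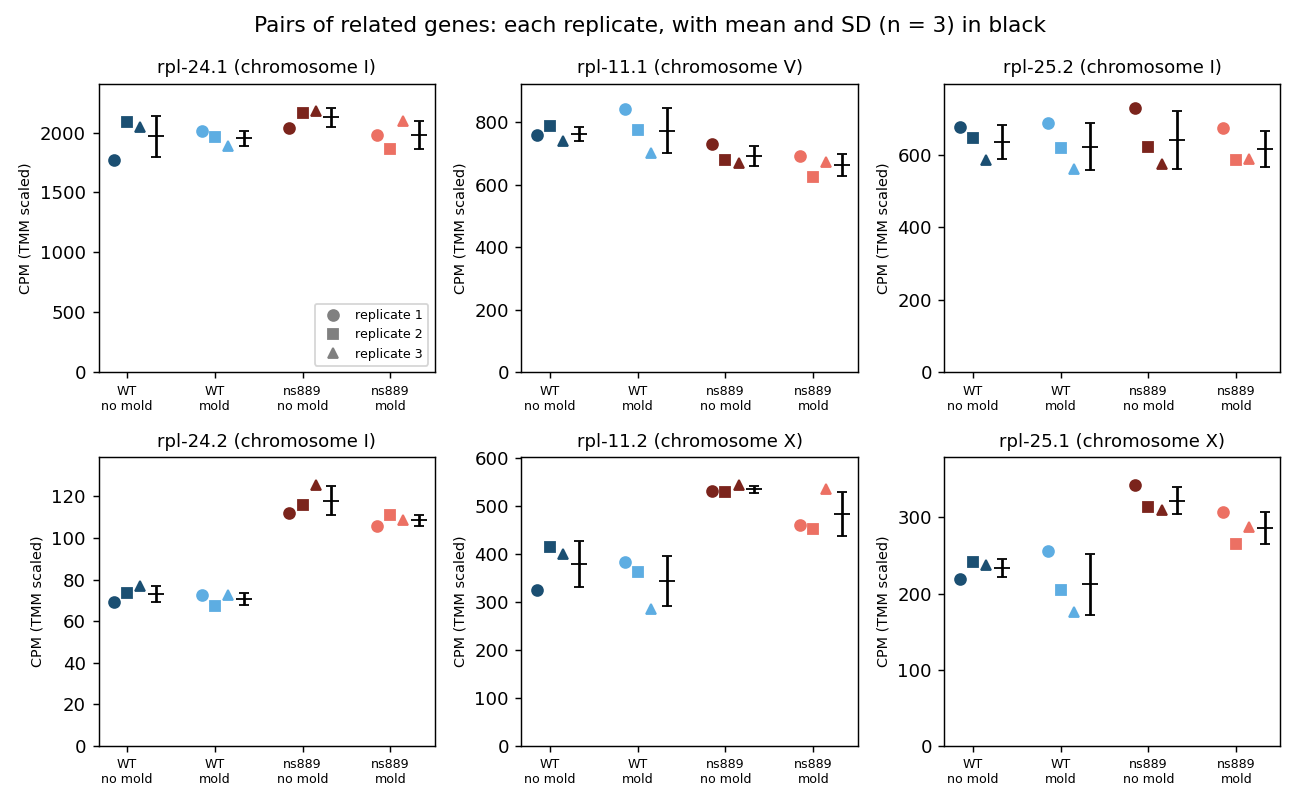
CPM of the 3 pairs rpl-24.1 and rpl-24.2, rpl-11.1 and rpl-11.2, and rpl-25.2 and rpl-25.1 in each replicate (symbols: replicate number), with the mean and SD of each group in black. In the lower row the ns889 replicates lie above the WT replicates of the same condition, and in the upper row the genotypes overlap for rpl-24.1 and rpl-25.2 and ns889 lies lower for rpl-11.1.

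Ribosomal proteins with other names did not pass either. Of 6 such genes, 0 were called in either condition by edgeR. Without mold 2 of the 6 were higher at an unadjusted p under 0.05, against 8.36% of all tested genes. rack-1, a scaffold on the small subunit, had 0.23 ± 0.10 log2 (adjusted p = 0.372), and rla-0, a protein of the large subunit stalk, had 0.21 ± 0.098 (adjusted p = 0.435). The median of these 6 genes was 0.14 without mold and 0.11 with it.

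Of 22 listed genes of ribosome assembly and the nucleolus, 20 rose in ns889 without mold and 18 with mold, against 2.42 and 5.12% of all tested genes. Their medians were 0.42 and 0.36, and the list was chosen with earlier results of these data known. The number called was 14 to 21 over the alternatives in both conditions. None of the 22 fell, and no gene of this list passed in the mold comparisons. nol-16 (0.60 ± 0.055 without mold and 0.43 ± 0.054 with mold), pro-1 (0.63 ± 0.062 and 0.57 ± 0.062) and nol-6 (0.77 ± 0.079 and 0.79 ± 0.079) had the smallest p without mold, with adjusted p of 8.66e-05, 0.000146 and 0.000178 there (edgeR).

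nol-6 (WBGene00021789, chromosome II, 1425758 to 1437499), a nucleolar protein gene, had 41.7, 49.3 and 50.2 CPM in WT and 84.9, 78.4 and 77.6 CPM in ns889 without mold. fib-1, which encodes fibrillarin, a methylase of ribosomal RNA, had 471.5, 549.7 and 493.8 CPM in WT and 646.2, 627.6 and 612.1 CPM in ns889. Neither gene overlapped between the genotypes, and fib-1 rose by 0.32 ± 0.069 (adjusted p = 0.0264, edgeR).

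RNA polymerase I genes rose alongside: 3 of 4 in each condition, against 2.42 and 5.12% of all tested genes, with medians of 0.44 and 0.35. rpoa-1, its largest subunit, had 116.0, 130.3 and 127.5 CPM in WT and 184.4, 188.9 and 182.2 CPM in ns889 without mold. The groups were far apart at 0.57 ± 0.064 log2 (adjusted p = 0.000327, edgeR). With mold, 2 to 4 of the 4 genes passed over the alternatives, and 3 to 4 without mold.

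Of 11 genes of TOR signalling and nucleolar control, 2 rose in each condition and 0 fell. That is 18.2% higher, against 2.42 and 5.12% of all tested genes without and with mold. ncl-1, known as a repressor of ribosomal RNA synthesis and of nucleolar size, rose the most of this list. It had 177.5, 147.2 and 143.3 CPM in WT and 407.7, 330.4 and 317.0 CPM in ns889 without mold, and 183.0, 151.9 and 153.3 against 400.1, 330.1 and 294.3 CPM with mold. No replicate overlapped, with log2 fold changes of 1.17 ± 0.13 and 1.07 ± 0.13 (adjusted p = 0.000363 and 0.000481, edgeR). rsks-1, the S6 kinase, rose by 0.35 ± 0.048 and 0.23 ± 0.048. let-363, the TOR kinase itself, had 0.03 ± 0.073 and -0.10 ± 0.073 and did not pass.

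Among 8 genes of translation elongation, 2 rose in both conditions, against 2.42 and 5.12% of all tested genes without and with mold. eef-1A.2 (chromosome X, 7823652 to 7825769), an elongation factor gene, had 578.3, 780.5 and 740.6 CPM in WT and 1360, 1358 and 1369 CPM in ns889 without mold, and 417.7 to 621.5 against 1162 to 1266 CPM with mold. It rose by 0.96 ± 0.13 log2 without mold (adjusted p = 0.0012) and passed with mold (adjusted p = 0.000228, edgeR). Its abundant relative eef-1A.1 on chromosome III had 0.06 ± 0.076 and 0.03 ± 0.076. iff-2, an eIF5A gene, rose by 0.76 ± 0.096 and 0.79 ± 0.096. The mitochondrial ribosomal protein genes had 10 of 70 higher without mold and 6 with mold, with 0 lower and medians of 0.19 and 0.09. These counts are 14.3 and 8.57% of the list, against 2.42 and 5.12% of all tested genes higher. Without mold the count of 10 became 5 when replicate 2 of WT, or replicate 2 or 3 of ns889, was left out, and 6 when replicate 1 of ns889 was. With mold the count of 6 became 1 when replicate 2 of WT or of ns889 was left out, 2 without replicate 3 of ns889 and 3 without its replicate 1. Of all tested genes, 1.6 to 1.69% without mold and 2.37 to 3.02% with mold were higher in these settings. Other settings raised the counts, with mold to 14 with the 5 CPM filter or a term for replicate 1 and to 18 with library totals or replicates 2 and 3 only. Without mold they raised it to 17 with the 5 CPM filter, and to 18 with the term or when replicate 1 of WT without mold and replicate 3 of WT with mold were both left out. Of all tested genes, 6.33% were higher with mold under the 5 CPM filter and 5.87% with the term. With library totals 7.71% were, and with replicates 2 and 3 only 15.7%. Without mold the shares were 4.04% with the filter, 3.19% with the term and 4.37% with both libraries left out. Of 33 initiation genes 1 rose without mold, and 1 rose and 1 fell with mold. These calls are 3.03 and 6.06% of the list, against 2.87 and 6.73% of all tested genes in either direction. Of 20 aminoacyl-tRNA synthetase genes edgeR called 0 in both. At an unadjusted p under 0.05, 13 of these 20 were higher without mold and 4 with mold, against 8.36 and 15.2% of all tested genes.

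Tissue markers were not level between the genotypes. All 7 germline markers had negative log2 fold changes in ns889 in both conditions, with medians of -0.10 and -0.19. Of these markers 1 fell with mold, against 1.61% of all tested genes. Negative values were also common among the 2048 genes of at least 100 CPM that are no members. There 1312 were negative without mold and 1546 with mold, with medians of -0.03 and -0.12. The germline markers summed to 3357 to 3491 CPM in WT and 3019 to 3249 CPM in ns889 without mold. With mold the sums were 3424 to 4039 and 3086 to 3220 CPM. Of 9 oocyte markers 2 fell with mold and 0 without, and of 6 yolk genes 5 fell with mold and 0 without. Epidermis genes lay the other way: 2 of 6 rose with mold and 0 without, with medians of 1.51 and 0.39, although col-19, by far the most abundant of them, had -0.21 ± 0.078 and -0.05 ± 0.078. In the lists of intestine, body muscle, neuron and sperm genes edgeR called 0 in both conditions. At an unadjusted p under 0.05, 2 of 29 tested sperm genes were lower without mold, against 580 of all 16980 tested genes. With mold 1 of 29 sperm genes was higher, against 2587 of all genes, and 1 of 7 intestine genes was lower, against 1665. No defining marker of these lists was at 0 in any group. The part of these shifts in the ribosomal protein values was not tested.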

How the data were processed

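What the authors deposited are unnormalized counts for each gene, from a stranded kit with poly(A) selection per the labels' protocols. The submitters' processing notes name the WBcel235 genome, FastQC 0.11.12, STAR 2.4a, featureCounts, limma 3.42.2 and edgeR 3.28.1. The counting's strand setting and the release of the annotation are not stated there. The 20 libraries form 12 replicates. Replicates 2 and 3 of each group had 2 runs, which were summed: chi-square per degree of freedom was 1.07 to 1.11 between such runs, and 11.6 to 182 between replicates of a group.

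The counts passed through filterByExpr and TMM scaling to edgeR's quasi-likelihood test (edgeR 4.0.16 in R 4.3.3). A single model held the 4 group means, with 5 contrasts, Benjamini-Hochberg adjustment over the 16980 genes and a threshold of 0.05. Values after ± are standard errors for log2 fold changes, and SD elsewhere. Exon lengths were those given in the deposited table. In annotation release 115, 16 members kept the start and end of that table. Intervals cover 95% and rest on the spread between replicates.

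The members and the lists were chosen with earlier results of these data known, so a list's direction is no independent evidence. Named members are those past the threshold, paralogs that share a number, the 5 highest and 5 lowest levels, the 4 least alike, and the 2 smallest p where none passed. Up to 3 genes with the smallest p are named from each other list. rpl-1, rpl-5, rps-29, rpl-39, rpl-43, rla-0, let-363, col-19, fib-1 and eef-1A.1 fall outside this rule for some results and were chosen after their values were seen. Symbols matched for 8 of 12 translation elongation genes, 22 of 26 ribosome assembly genes and 20 of 21 aminoacyl-tRNA synthetase genes. The scripts were tested on simulated data.

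Alternatives were RLE factors, library totals, scaling without the members, DESeq2 1.42.0, limma-voom (limma 3.58.1), no filter, 5 CPM in 3 replicates, a block for the replicate number, 1 run per replicate, fits of only the 2 groups compared, and replicates left out. Figures were drawn with matplotlib 3.10.9.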

Additional observations from a re-analysis of the deposited data

How the results depend on the processing

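The median log2 fold changes of the members kept their sign under every alternative between the genotypes and for mold in ns889. With single replicates left out they were 0.11 to 0.18 (ns889 against WT without mold), 0.02 to 0.17 (with mold), -0.13 to -0.07 (mold in ns889), -0.14 to 0.03 (mold in WT) and -0.135 to 0.0485 (difference of the responses). With replicates 2 and 3 only, added after seeing the data, the latter medians were -0.16 and 0.0917, and 13 members were lower with mold in WT (16.7%, against 19.4% of all genes). In that comparison 1 member, rpl-42, was lower with RLE factors, DESeq2, no filter, a term for replicate 1 (also added after seeing the data), or when replicate 1 of WT without mold and replicate 3 of WT with mold were both left out. That is 1.28% of the members, against 3.12 to 12.9% of all genes lower in these settings. With single replicates left out 0 to 2 members were lower (at most 2.56%, against 0.36 to 14.8% of all genes). The 3 members higher in ns889 without mold became 1 with the 5 CPM filter (1.3%, against 4.04% of all genes) and 5 without both libraries (6.41%, against 4.37%). When any single replicate was left out there was 1 (1.28%, against 1.6 to 2.66%). The 3 with mold became 6 with library totals (7.69%, against 7.71% of all genes) and 20 with replicates 2 and 3 only (25.6%, against 15.7%). With single replicates left out there were 1 to 9 (1.28 to 11.5%, against 2.37 to 7.7%). With mold, rpl-11.1 was the 1 member lower without both libraries and with the term for replicate 1 (1.28%, against 3.32 and 2.94% of all genes). The lower count with mold was 0 to 1 with single replicates left out. The cause was not tested. The members' share of counts without the 50 most abundant other genes in the total was 9.32, 8.77, 10.26 and 9.68% in WT without and with mold and ns889 without and with mold.

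Over all tested genes the deviations of same-numbered replicates correlated at -0.323 to 0.297, below 0 in some pairs, so the numbers were not taken to pair the replicates, although replicate 1 stood apart for some short members. With the replicate block 2 members were higher in ns889 without mold and rpl-11.2 was lost (adjusted p = 0.081 without and 0.0514 with mold, edgeR). rpl-25.1 was lost without mold under library totals (adjusted p = 0.0604), scaling without the members (0.0598), the 5 CPM filter (0.0518) and the first run only (0.0676), and with mold in a fit of only the 2 groups (0.0899, edgeR). The median half-width of the intervals was 0.19 log2 between groups and 0.27 for the difference of the responses, and smaller changes could not be resolved for the median member.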
